A study of Homo sapiens with 3 samples.

Results

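ZBTB11 peaks whose summit lay in protein-coding sequence far from any transcription start site (TSS) numbered 1945, of 346803 ZBTB11 peaks on chromosomes 1 to 22 and X. A peak was taken when its summit fell inside an annotated coding (CDS) feature of a protein-coding gene and its interval was more than 3 kb from every annotated transcript start, whatever its width. Coding sequence held 5413 summits at any distance, and 3468 of them were within 3 kb of a transcript start. The 108871 peaks with a summit in an intron of a protein-coding gene, more than 3 kb from every transcript start and in no exon of any gene, served as the comparison. The 3 members nearest to the limit from inside lay in MICALL2 (3009 bp from a transcript start), SPTBN5 (3016 bp) and OR5M3 (3017 bp), with 8, 6 and 5 fragments at the summit. The nearest coding peaks on the other side of the limit lay in ADAMTS10 (2993 bp), SCN8A (2988 bp) and KIAA0319 (2980 bp), with 4, 5 and 6 fragments.

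The cells were of the human lung cancer line NCI-H1299, and the peaks mark where immunoprecipitated chromatin gave more sequenced fragments than its surroundings (ChIP-seq). They were wild type, received no treatment and were fixed with formaldehyde at 1%. The study asked where ZBTB11 sits on chromatin, with 1 library made with an antibody against ZBTB11 (Bethyl, A303-240A) and 1 made with normal IgG as the negative control, which the sample labels give as CST, 2729S and the antibody list of the study's methods as an Invitrogen rabbit IgG (Input DNA was sequenced too and is not analysed here). With 1 library for each antibody, no difference could be tested across replicates, no p-value is given for any comparison, and the 95% intervals given below (Wilson for shares, Newcombe for differences of shares, Poisson for counts and ratios) cover counting error only. The IgG list held peaks only on chromosomes 1, 10 and 21 of the 23 chromosomes used, and comparisons with IgG were kept to these.

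ZBTB11 belongs to the ZBTB proteins, which join a BTB domain, a surface for binding other proteins, to zinc fingers that contact DNA. Transcription factors of this kind are known mostly from promoters and enhancers, but coding exons can also hold their sites, and exon sequence must then serve both the protein code and the factor. Coding exons are richer in G and C than the introns around them, and the last exons of C2H2 zinc finger genes carry long arrays of similar repeats. Base content, exon position and sequence copies were therefore measured, though not beside every comparison. The ratios of gene families and those of IgG peaks were not taken at the same GC content.

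The sequences of the strongest members show what kind of sequence carried these peaks. Each run below is the window of 50 bp on either side of the summit (hg38), 5′ to 3′ on the strand of the gene, with coding bases in capitals and intron bases, or the first base of the stop codon of NCF1, in lower case. The windows lie at chr7:74789058-74789158 for NCF1, chr16:88534420-88534520 for ZFPM1, chr19:39507524-39507624 for DLL3, chr2:137572464-137572564 for THSD7B, chr9:125233860-125233960 for RABEPK and chr6:99613932-99614032 for PRDM13, all on the plus strand.
NCF1: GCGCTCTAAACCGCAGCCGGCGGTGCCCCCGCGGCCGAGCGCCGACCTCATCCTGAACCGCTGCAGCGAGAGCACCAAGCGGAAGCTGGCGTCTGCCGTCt
ZFPM1: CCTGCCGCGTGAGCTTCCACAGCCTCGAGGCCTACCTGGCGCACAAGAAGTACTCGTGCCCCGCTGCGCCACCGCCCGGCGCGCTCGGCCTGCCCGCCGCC
DLL3: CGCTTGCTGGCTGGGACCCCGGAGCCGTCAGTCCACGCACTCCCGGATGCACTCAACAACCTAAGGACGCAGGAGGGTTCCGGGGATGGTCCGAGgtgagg
THSD7B: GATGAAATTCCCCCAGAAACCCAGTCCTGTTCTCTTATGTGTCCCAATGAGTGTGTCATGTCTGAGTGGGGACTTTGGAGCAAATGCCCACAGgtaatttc
RABEPK: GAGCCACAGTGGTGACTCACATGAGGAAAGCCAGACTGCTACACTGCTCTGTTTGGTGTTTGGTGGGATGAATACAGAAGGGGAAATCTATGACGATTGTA
PRDM13: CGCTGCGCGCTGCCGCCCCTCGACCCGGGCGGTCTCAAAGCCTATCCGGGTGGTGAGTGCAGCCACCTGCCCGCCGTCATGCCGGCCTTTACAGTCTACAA
The windows of ZFPM1, RABEPK and PRDM13 were coding over all 101 bases, and those of DLL3 and THSD7B ran over the 3′ end of the exon, with 95 and 93 coding bases. G and C made up 71.3% of the NCF1 window, 75.25% of the ZFPM1 window, 68.3% of the PRDM13 window and 66.3% of the DLL3 window, but 47.5% of the RABEPK and THSD7B windows. None of these 6 windows held the motif CCGGAAG or CAGGAAG, searched on both strands.

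The windows of 3 members among the 20 strongest that did hold the motif are set beside 2 strong intronic peaks with it, to show the same letters in both settings. Here the motif is in capitals, and the strand printed is the one on which it reads CCGGAAG or CAGGAAG. The coding windows are chr11:120952864-120952964 in GRIK4 (minus strand), chr9:130433342-130433442 in HMCN2 (minus strand) and chr11:65894020-65894120 in FOSL1 (plus strand), and the intronic windows, both on the plus strand, are chr15:98866184-98866284 in IGF1R and chr17:73305077-73305177 in CDC42EP4.
GRIK4: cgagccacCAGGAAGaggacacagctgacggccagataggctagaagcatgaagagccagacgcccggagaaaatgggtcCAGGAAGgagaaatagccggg
HMCN2: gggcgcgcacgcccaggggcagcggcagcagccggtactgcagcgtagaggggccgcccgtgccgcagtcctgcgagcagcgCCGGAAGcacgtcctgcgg
FOSL1: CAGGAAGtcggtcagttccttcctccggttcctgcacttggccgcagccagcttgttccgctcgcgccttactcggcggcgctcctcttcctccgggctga
IGF1R: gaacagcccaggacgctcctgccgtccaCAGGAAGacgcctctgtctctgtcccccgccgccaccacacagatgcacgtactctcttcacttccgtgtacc
CDC42EP4: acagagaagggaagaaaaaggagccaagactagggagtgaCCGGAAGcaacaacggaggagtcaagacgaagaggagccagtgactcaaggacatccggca
The GRIK4 window held 2 matches and the others 1 each on the strand shown. Summits of the coding peaks had 10 fragments in GRIK4, 10 in HMCN2 and 19 in FOSL1, and those of the intronic peaks had 98 in IGF1R and 82 in CDC42EP4.

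Most members were faint. The fragments piled up at each summit, recovered from the deposited fold enrichment and p-value, ranged from 3 to 212 with a median of 5 (mean 5.35 ± 6.02, SD over the 1945 members), and the intronic peaks also had a median of 5. A pileup of 6 fragments or fewer was found in 1673 members (86.0%, 84.4 to 87.5) and in 90.3% (90.1 to 90.4) of the intronic peaks. The local background was at its lowest value, 1.35 fragments, in 1260 members (64.8%) and in 70.8% of the intronic peaks. The smallest width in the list, 258 bp, was that of 833 members (42.8%) and of 44.1% of the intronic peaks. A deposited q-value of 0.05 or less belonged to 90 members (4.63%, 3.78 to 5.65), against 3.22% (3.12 to 3.33) of the intronic peaks and 7.7% of all ZBTB11 peaks. The share in members exceeded that in introns by 1.41 percentage points (0.552 to 2.44). A p-value of 1e-05 or less belonged to 25 members (1.29%, 0.872 to 1.89), against 0.683% (0.636 to 0.734) of intronic peaks and 4.25% of all ZBTB11 peaks. The members and the introns were both below the whole list, which also holds the peaks near TSSs.

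The summit lay in coding sequence by rule, but the peak often reached past the exon. The interval was wholly coding in 385 members (19.8%, 18.1 to 21.6) and less than 25% coding in 218 (11.2%, 9.88 to 12.7), with a median of 51.7% coding. Within the coding part of the exon, divided into a 5′, a middle and a 3′ part of equal length, 31.7% (29.7 to 33.8), 34.45% (32.4 to 36.6) and 33.8% (31.8 to 36.0) of summits fell in each, each within counting error of an even spread. Members lay a median of 9042 bp from the nearest transcript start (3009 to 243637 bp), and the intronic peaks 14773 bp.

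The strongest member lay in the last exon (11 of 11) of NCF1, which codes for a cytosolic subunit of the phagocyte NADPH oxidase, at chr7:74788684-74789539. It had 212 fragments where the local background was 11.2. Its enrichment of 17.5-fold was the largest among the members, its interval was 16.4% coding, and its central 31 bases occurred 3 times in the assembly. The second, in the last exon (10 of 10) of ZFPM1, a zinc finger cofactor of GATA factors, had 94 fragments over 4.88 at chr16:88534213-88534687. It lay 3160 bp from the nearest transcript start, that of the antisense RNA ZFPM1-AS1. The third, in exon 7 of DLL3, an inhibitory Notch ligand, had 113 fragments over 9.08 at chr19:39506846-39507918. These 3 peaks stood apart from the rest, since the next member had 35 fragments or fewer.

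Next came 4 members of 33 to 35 fragments, and 8 members in all had 20 or more. THSD7B, a thrombospondin repeat protein, had 33 fragments over 2.17 in exon 17 of 28, and RABEPK, a kelch repeat protein that binds a Rab GTPase, had 35 over 2.97 in its last exon. PRDM13, a PR domain zinc finger regulator of neural development, had 35 over 4.08 in its last exon, in the widest member (1432 bp, chr6:99613306-99614737). CDKN2C, an inhibitor of the cyclin D kinases, had 33 over 4.26 in its last exon. TP53INP2, an autophagy protein, followed with 22 over 4.08 in exon 4 of 5.

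The other 12 of the 20 strongest had between 9 and 19 fragments. Among regulators of transcription, PRDM8 had 15 fragments over 1.86 in its last exon, FOSL1, a FOS family subunit, had 19 over 5.11 in exon 3 of 4, and the orphan nuclear receptor NR2F6 had 11 over 2.22. The KRAB-type zinc finger genes ZNF250 and ZNF557 each had 10, over 1.68 and 1.73. Genes of synapses and axons included GRIK4, a kainate receptor subunit, with 10 over 1.35, GRID2IP, a partner of a delta glutamate receptor, with 13 over 2.09, and DYNC1I1, an intermediate chain of cytoplasmic dynein, with 12 over 2.32. The remaining ones were HMCN2, a hemicentin (10 over 1.47), the pseudokinase gene PRAG1 (10 over 1.57), B3GNT6, a mucin glycosyltransferase (9 over 1.42), and SPDYE17, whose central 31 bases occurred 9 times (9 over 1.37). Of these 20 members, 10 lay in a last exon and 10 in an internal one, 12 had a GC content of at least 60%, 18 had a single copy in the assembly, and 1 (CDKN2C) lay on a chromosome with IgG peaks and overlapped none.

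**Figure D1:**
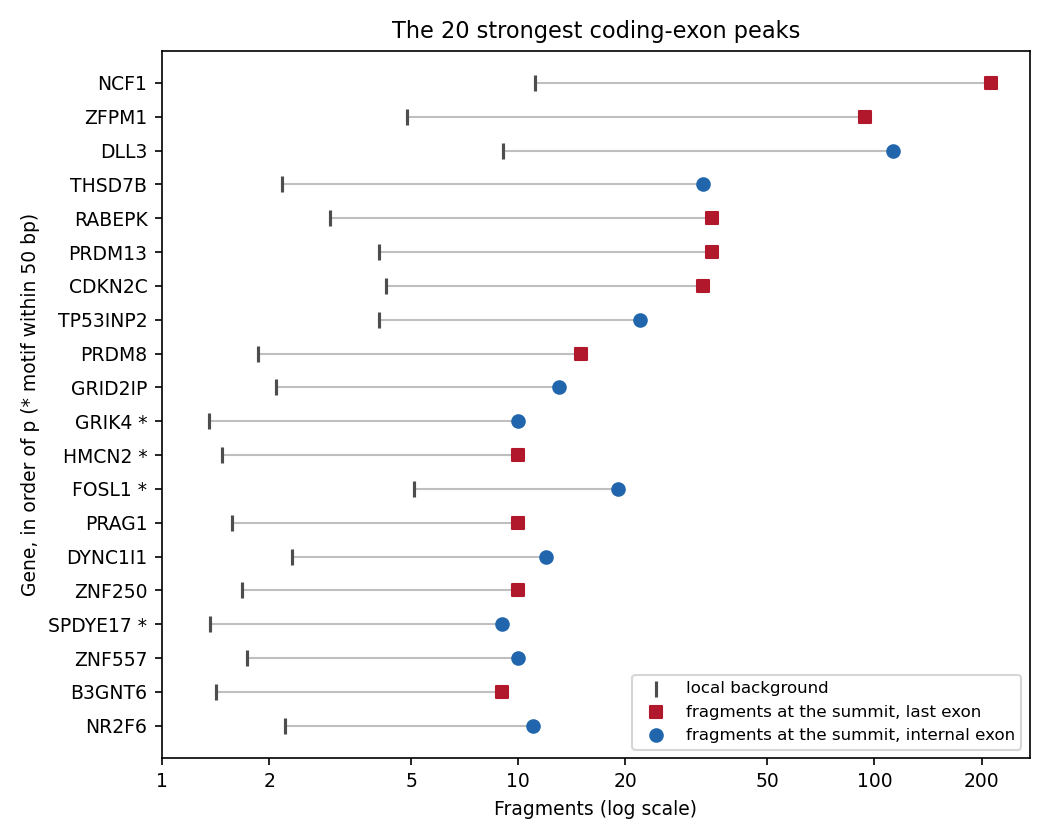
Fragments at the summit (squares, last exon; circles, internal exon) and local background (ticks) of the 20 coding-exon peaks with the smallest p-values, on a log axis in fragments, with an asterisk for genes whose summit had the motif within 50 bp. NCF1, DLL3 and ZFPM1 stand at 212, 113 and 94 fragments, and the other 17 at 35 or fewer.

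Per length of sequence, coding exons and introns carried ZBTB11 peaks at nearly the same rate. Far coding sequence spanned 15.6 Mb and held 124.5 peaks per Mb, and far introns spanned 927.5 Mb and held 117.4 per Mb, a ratio of 1.06 (1.01 to 1.11). Windows around members had a mean GC content of 48.8% ± 10.9 (SD), against 48.5% over all far coding bases, and windows around intronic peaks 41.3% ± 9.99, against 40.6% over all far intron bases. When the intron rate in each 10-point band of GC content was applied to the coding bases, the ratio became 1.01 (0.965 to 1.06), and in each band from 20% to 80% and above the interval of the ratio held 1. By distance, the ratio was 1.03 (0.966 to 1.09) from 3 to 10 kb, 1.07 (0.992 to 1.16) from 10 to 30 kb, 1.12 (0.977 to 1.29) from 30 to 100 kb and 0.839 (0.464 to 1.52) farther out, where 11 members lay.

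The rates parted among the better supported peaks, and less so at the same GC content. At 6 or more fragments the coding rate was 1.30 (1.19 to 1.41) times the intron rate with 572 members, at 8 or more 1.83 (1.53 to 2.18) times with 129, at 10 or more 2.33 (1.69 to 3.21) times with 39, and at 20 or more 2.55 (1.26 to 5.18) times with 8. At the same GC content these ratios were 1.13 (1.04 to 1.23), 1.25 (1.04 to 1.49), 1.03 (0.744 to 1.44) and 0.781 (0.378 to 1.61). For members with q of 0.05 or less the ratio was 1.52 (1.24 to 1.88), and 1.02 (0.825 to 1.265) at the same GC content. Windows with a GC content of 60% or more made up 17.3% of far coding bases and 3.40% of far intron bases, and held peaks of 8 or more fragments at 15.2 per Mb in coding sequence and 12.5 per Mb in introns. In windows below 60% the rates of such peaks were 6.81 and 4.24 per Mb. Members of 10 or more fragments had a median GC content of 58.4% and 5 CpG sites per 101 bases, against 47.5% and 2 in the others.

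**Figure D2:**
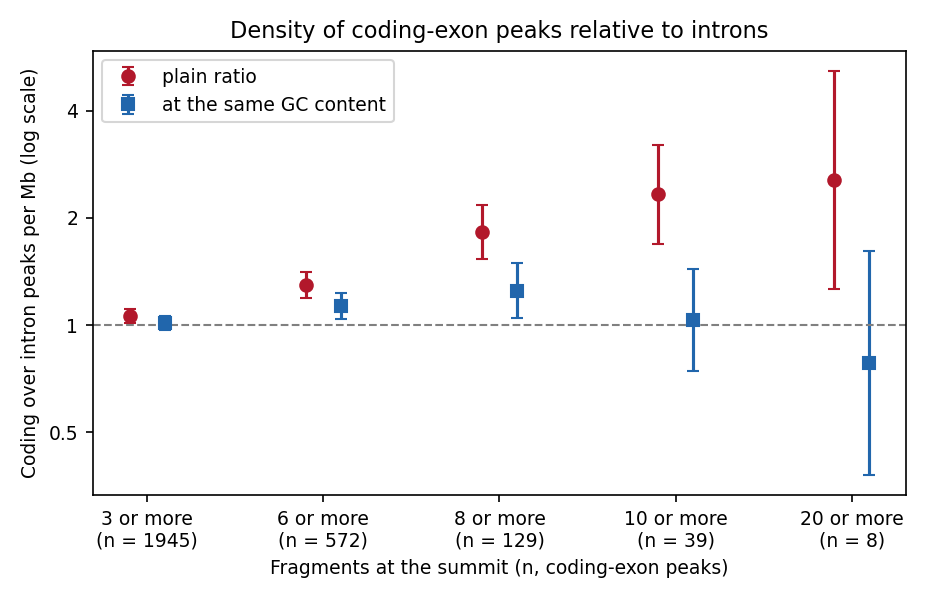
Peaks per Mb in far coding exons over peaks per Mb in far introns (log axis), for all peaks and for those above rising fragment counts, as a plain ratio (circles) and at the same GC content (squares), with 95% Poisson intervals. The plain ratio climbs from 1.06 to 2.55 with the fragment count, while the ratio at the same GC content stays between 0.781 and 1.25.

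The control list gave a similar picture for the faint peaks. On chromosomes 1, 10 and 21 the IgG list held 180 coding and 9048 intronic peaks far from TSSs, a ratio of rates of 1.07 (0.925 to 1.24), against 1.05 (0.941 to 1.17) for the 319 members there. At 6 or more fragments the ratio was 1.22 (1.02 to 1.47) for IgG and 1.19 (0.932 to 1.52) for ZBTB11 on these chromosomes. This cutoff was unlike in the 2 lists, since it kept 121 of the 180 IgG coding peaks but 65 of the 319 members. At 8 or more fragments the ratio was 1.16 (0.697 to 1.94) for IgG, with 15 coding peaks. For ZBTB11 it was 1.33 (0.659 to 2.68), with 8 members, an interval that held both 1 and the 1.83 of all chromosomes. At 10 or more each list had 1 coding peak there, so the rates of the stronger peaks could not be compared with IgG. The lowest background was 1.55 fragments in the IgG list and 1.35 in the ZBTB11 list. None of the 180 IgG coding peaks had a q of 0.05 or less. By 3 counts of the total this allows a share of up to 1.67%, and the Wilson bound is 2.09%. The strongest of these peaks in fragments had 10.

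An IgG peak overlapped 23 of the 319 members on these chromosomes (7.21%, 4.85 to 10.6), against 6.54% (6.17 to 6.93) of the intronic peaks and 9.78% of all ZBTB11 peaks there. Of the members whose central 31 bases occurred more than once, 7 of 30 overlapped an IgG peak (23.3%, 11.8 to 40.9), and of those in a single copy 16 of 289 (5.54%, 3.44 to 8.80). HRNR, the gene of a keratinocyte protein made of long repeats, gave 3 of these overlaps and NBPF10, of a duplicated neuroblastoma breakpoint family, gave 2. The overlap was 13.85% (7.46 to 24.3) for members of 6 or more fragments and 5.51% (3.31 to 9.04) for the fainter ones. Intronic peaks differed in the same direction, at 10.1% (9.10 to 11.3) for 6 or more fragments and 5.75% (5.37 to 6.16) for fewer. By copies their overlap was 9.18% (8.15 to 10.3) for more than 1 copy and 6.02% (5.64 to 6.43) for 1 copy. Summits in more than 1 copy were rarer in coding exons, at 122 members (6.27%, 5.28 to 7.44), than in introns, at 15.1% (14.9 to 15.3).

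The motif that the study derived from ZBTB11 peaks, CCGGAAG or CAGGAAG on either strand, lay within 50 bp of the summit in 115 members (5.91%, 4.95 to 7.05), against 3.67% of all ZBTB11 peaks. All windows of that length in far coding sequence held it in 5.35%, and windows 500 bp to either side of the members in 3.496% (2.96 to 4.12). Internal exons with a member had a median length of 167 bp, so many of these flanking windows lay outside the exon. Their lower share is therefore not that of coding sequence alone. In introns the peaks held it in 3.04% (2.94 to 3.14) and all windows in 2.76%. At the same GC content the members had 1.096 (0.905 to 1.32) times, and the intronic peaks 1.07 (1.03 to 1.103) times, the share of all windows of their kind. The motif read along the coding strand in 59 members and against it in 57, with 2.68% and 2.74% expected from all far coding windows and 3.03% and 2.93% found.

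Among stronger peaks the motif became common in introns, while the coding exons had too few such peaks for a firm reading. The study derived this motif from its ZBTB11-high peaks, so the rise of its share with fragment count may be partly built in. At 8 or more fragments it was near 6.202% (3.18 to 11.8) of members and 7.602% (6.84 to 8.44) of intronic peaks, and at 10 or more near 3 of 39 members (7.69%, 2.65 to 20.3) and 16.5% (14.3 to 18.95) of intronic peaks, a difference of -8.82 percentage points (-14.4 to 3.99). At 20 or more it was found in 0 of 8 members, and in 33.9% (27.5 to 40.9) of 186 intronic peaks. By 3 counts of the total, 0 of 8 allows a share of up to 37.5%, and the Wilson bound is 32.4%. The difference of -33.9 points (-40.9 to -0.802) has a Wilson-based interval, and with the wider bound the shares cannot be told apart. Of the 20 strongest members 4 had the motif (GRIK4, HMCN2, FOSL1 and SPDYE17), and of the 20 strongest intronic peaks, which had 66 to 428 fragments, 8 had it. The IgG coding peaks held the motif in 18 of 180 (10.0%, 6.42 to 15.25), and members on the same chromosomes in 24 of 319 (7.52%, 5.11 to 10.95), so the control share was not below that of ZBTB11.

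**Figure D3:**
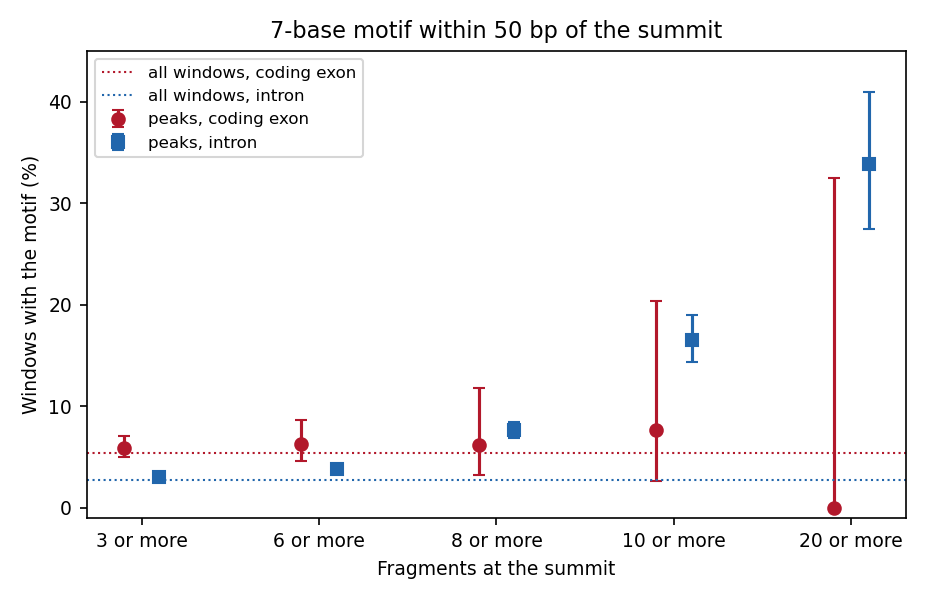
Percent of 101-base windows with CCGGAAG or CAGGAAG for peaks in coding exons (circles) and introns (squares) above rising fragment counts, with 95% Wilson intervals, and for all windows of each kind of sequence (dotted lines). The intronic share rises from 3.04% to 33.9%, and the coding share lies between 5.91% and 7.69% up to 10 or more fragments and is 0 of 8 at 20 or more.

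Members were spread over internal and last exons about as the bases were. Internal exons held 1479 members (76.0%) and 75.3% of far coding bases, last exons held 464 (23.9%) and 24.5% of bases, and first exons and single-exon transcripts held 1 each. The rate was 121.1 per Mb in last exons and 125.7 per Mb in internal ones, a ratio of 0.963 (0.868 to 1.07). Within exons of 1000 bp or more, which held 380 of the last-exon and 149 of the internal members, the ratio was 0.961 (0.795 to 1.16), and its interval also held 1 in each of the 3 classes of shorter exons. Peaks in last exons were more fully coding, with a median of 93.7% of the interval against 46.9% in internal exons, whose median length was 167 bp.

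Last exons carried more of the stronger members per length, in part of the comparisons made at the same GC content. A q of 0.05 or less was found in 31 of the 464 last-exon members (6.68%, 4.75 to 9.33) and in 59 of the 1479 internal ones (3.99%, 3.11 to 5.11). The ratio of rates for such members was 1.61 (1.04 to 2.49), and 1.37 (0.864 to 2.18) at the same GC content, where the interval held 1. At 8 or more fragments the rate in last exons was 1.70 (1.19 to 2.44) times that in internal exons (46 and 83 members), and 1.47 (1.01 to 2.15) times at the same GC content. At 10 or more it was 3.23 (1.72 to 6.05) times (20 and 19 members), and 2.23 (1.09 to 4.58) times at the same GC content. Within exons of 1000 bp or more the ratio at 8 or more fragments was 1.88 (0.882 to 4.02), with 40 and 8 members. It was 1.84 (0.863 to 3.94) at the same GC content. At 10 or more fragments the ratio in these exons was 1.41 (0.469 to 4.26), with 15 and 4 members. The part of exon length in the difference was not tested further. The motif share was 6.68% (4.75 to 9.33) in last and 5.68% (4.61 to 6.98) in internal exons, against 5.61% and 5.26% of all windows.

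By gene, members were spread thinly. They lay in 1675 of the 13783 genes with far coding sequence, 1454 of which had 1 member, 185 had 2, 26 had 3, 7 had 4 and 3 had 5. With genes split into 4 groups of equal size by their far coding length, the share with a member grew from 2.09% (1.66 to 2.62) in the shortest group to 28.0% (26.5 to 29.5) in the longest, while the rates per Mb ran from 108.2 to 126.8. The 3 genes with 5 members were TTN, of the giant sarcomere protein titin, with 4 to 5 fragments per peak over 44.01 kb of far coding sequence, DYNC2H1, the heavy chain of the dynein of cilia, with 4 to 5 over 11.7 kb, and MUC19, a gel-forming mucin, with 7 to 9 over 19.3 kb and local backgrounds of 2.81 to 3.30 fragments. Those with 4 were AHNAK, DMXL2, EPPK1, HRNR, SPTBN5, UNC79 and WDR87, all with 10 fragments or fewer at every summit. Of these 10 genes, 1 member, in EPPK1, had a q of 0.05 or less. MUC16, the second longest with 38.9 kb, had 1 member.

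Most families of related genes had rates within counting error of those of other genes. Of 29 families grouped by gene symbol, 27 had a ratio to all other genes whose interval held 1, 1 lay above 1 and 1 had no member. C2H2 zinc finger genes, the largest group, held 93 members in 84 of 475 genes at 135.7 per Mb, a ratio of 1.09 (0.889 to 1.35). Of the 93, 76 lay in the last exon. The share of the far coding bases of these genes in last exons was not measured, so no preference can be read from this count. The ZBTB genes held 5 members, the strongest in ZBTB10 with 8 fragments, a ratio of 1.07 (0.447 to 2.58). The PRDM, KLF, SP, GLI and EGR genes held 5 members, 2 with a q of 0.05 or less, in PRDM13 and PRDM8, and a ratio of 0.776 (0.323 to 1.87).

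Spectrins and plakins, the long proteins that tie the cytoskeleton to membranes and junctions, held 22 members in 8 of 14 genes at 224.7 per Mb, a ratio of 1.81 (1.19 to 2.76), which was the family above 1. Its strongest member, in EPPK1, had 7 fragments, and 1 of the 22 had a q of 0.05 or less. Of the 4 members in EPPK1, 2 lay in sequence of more than 1 copy. With 28 ratios formed, an interval can miss 1 by counting error alone. Among the other groups of extracellular and surface proteins, collagens had a ratio of 1.28 (0.807 to 2.04, strongest in COL14A1 with 7 fragments), cadherins 1.28 (0.783 to 2.10, CDH17 with 8), mucins 0.922 (0.564 to 1.51, MUC12 with 13, in sequence of more than 1 copy) and laminins 0.6004 (0.194 to 1.86, LAMA1 with 5). Protocadherins had 1 member (0.454, 0.0639 to 3.22, PCDH19 with 5) and LDL receptor-related proteins 2 (0.369, 0.0922 to 1.48, LRP4 with 4).

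Proteases, channels and motors also had intervals that held 1. Matrix metalloproteinases had 3 members (ratio 1.84, 0.592 to 5.70, strongest in MMP21 with 6 fragments), and ADAM and ADAMTS proteases 9 (0.843, 0.438 to 1.62, ADAMTS18 with 7). Voltage-gated calcium and sodium channels had 11 (1.03, 0.572 to 1.87), with the strongest in CACNA1G at 9 fragments and a q below 0.05, and potassium channels 8 (0.810, 0.405 to 1.62, KCNB2 with 7). Solute carriers had 38 (1.02, 0.740 to 1.41, SLCO5A1 with 11), dynein heavy chains 17 (0.903, 0.560 to 1.46, DNAH7 with 6), myosins 16 (1.32, 0.807 to 2.16, MYH1 with 7) and kinesins 11 (1.00, 0.554 to 1.81, KIF16B with 6). Olfactory receptors held 5 members (0.472, 0.196 to 1.14, OR2T1 with 5), and the duplicated families that include NBPF held 17 (0.837, 0.519 to 1.35, NBPF10 with 8). The Notch receptors held none over 0.0125 Mb. Ratios of the smaller families not named here ran from 0.337 (fibrillins and latent TGF-beta binding proteins, 1 member, in LTBP1) to 1.34 (semaphorins and plexins, 6 members, strongest in SEMA5B with 6 fragments).

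**Figure D4:**
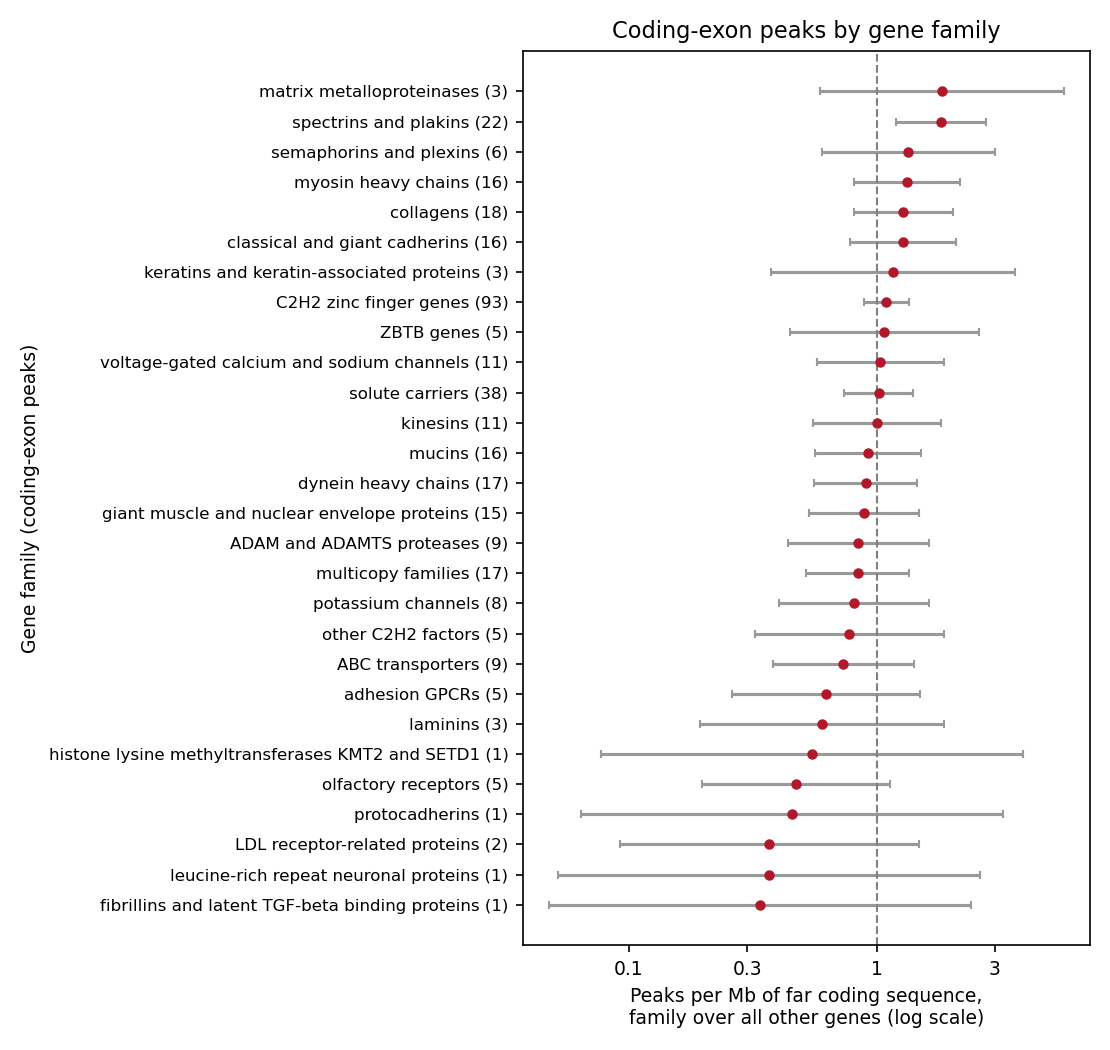
Peaks per Mb of far coding sequence in each gene family over that in all other genes (points, log axis) with 95% Poisson intervals and the number of coding-exon peaks in brackets, for the 28 families with a member. The interval holds 1 for 27 families and lies above it for spectrins and plakins (1.81, 1.19 to 2.76).

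Across chromosomes the members rose and fell with the intronic peaks. Coding rates ran from 56.3 per Mb on X and 65.7 on chromosome 13 to 162.4 on chromosome 5, and the intron rates were 55.8, 61.8 and 151.5 per Mb there. Over the 23 chromosomes, which share 1 library, the rates had a Pearson's r of 0.932 and a Spearman's rho of 0.821, given as a description. The ratio of coding to intron rates ran from 0.917 to 1.23, and its interval held 1 on 22 chromosomes, with chromosome 2 above it (1.21, 1.05 to 1.39).

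Chromosome 19 stood apart among the stronger intronic peaks, and held many of the stronger members. It held 99 members (5.09%) but 12 of the 39 with 10 or more fragments (30.8%, 18.6 to 46.4), and 1611 intronic peaks (1.48%) but 187 of the 993 with 10 or more (18.8%, 16.5 to 21.4). Of its members 12.1% (7.07 to 20) and of its intronic peaks 11.6% (10.1 to 13.3) reached 10 fragments, while on the other chromosomes the shares of intronic peaks were between 0.251% and 2.39%. The members' own shares reached 7.94% (3.44 to 17.3) on chromosome 8 and 5.61% (2.595 to 11.7) on chromosome 7, whose intervals overlap that of chromosome 19. The local background was raised over part of the chromosome: members from 35 to 40 Mb had a median background of 3.44 fragments and those from 40 to 45 Mb 3.20, the intronic peaks there 3.35 and 3.15, and both had medians of 1.35 from 45 to 60 Mb. From 35 to 40 Mb lay 8 of the 12 stronger members, and 4 of the 12 had a q of 0.05 or less. The IgG list has no peaks on this chromosome, so its level there could not be compared.

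Zinc finger genes cluster on this chromosome, and their stronger members moved with it. At 8 or more fragments the rate in C2H2 zinc finger genes was 3.999 (2.48 to 6.44) times that in other genes (20 and 109 members), but 1.61 (0.820 to 3.15) times within chromosome 19 and 1.71 (0.629 to 4.66) times without it (4 and 91 members). The 6 with 10 or more fragments were, in the last exon, ZNF565 (12 fragments over a background of 4.28), ZNF850 (10 over 3.56), ZNF570 (10 over 3.69), ZNF146 (10 over 4.46) and ZNF250 on chromosome 8, and, in an internal exon, ZNF557. The 4 of them with a background above 3 had fold enrichments of 2.01 to 2.46 and no q of 0.05 or less, and these 4 and WDR87, with 7 to 10 fragments over 3.07 to 3.33, all lay between 35 and 40 Mb. ZNF565, ZNF850, ZNF570 and ZNF146 lie outside the rule for named genes and were chosen after their values were seen. The excess of stronger members in last over internal exons was as large without chromosome 19 at 10 or more fragments, at 3.58 (1.68 to 7.62) with 14 and 13 members, but at 8 or more it was 1.32 (0.846 to 2.06), and 1.22 (0.777 to 1.925) at the same GC content. The excess of coding over intron rates at 8 or more fragments was 1.55 (1.27 to 1.90) without it, and 1.102 (0.896 to 1.36) without it at the same GC content.

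**Figure D5:**
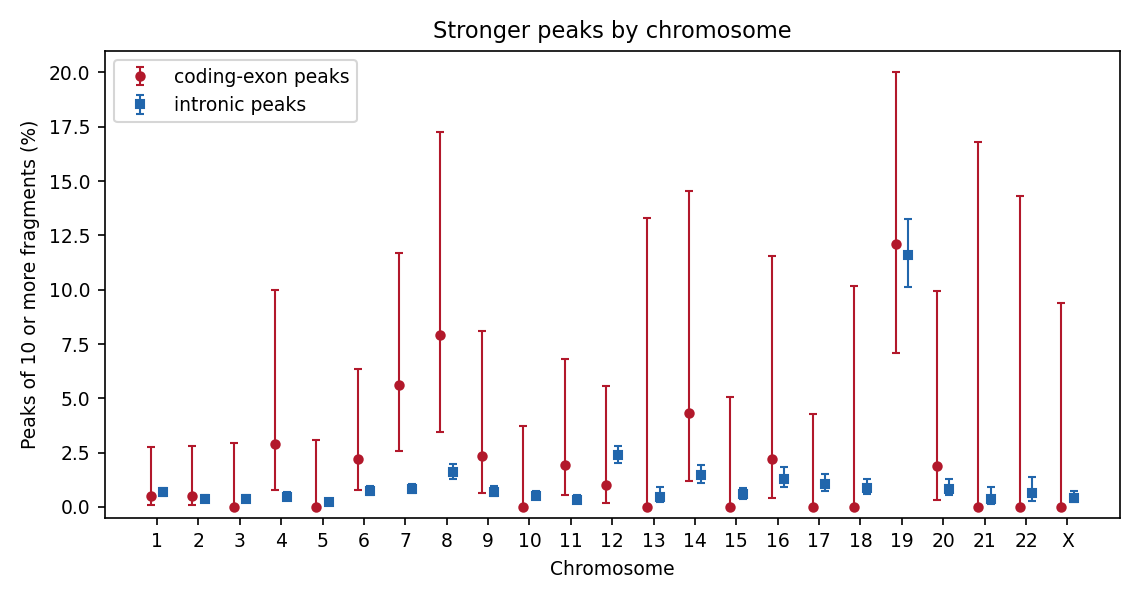
Percent of peaks with 10 or more fragments at the summit on each chromosome, for coding-exon peaks (circles) and intronic peaks (squares) far from TSSs, with 95% Wilson intervals. On chromosome 19 both kinds stand high, at 12.1% and 11.6%, the intronic peaks of all other chromosomes lie at 2.39% or lower, and the coding-exon peaks of chromosome 8 reach 7.94%.

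A ZBTB11 peak at the gene's own start was about as frequent in genes with a member as in the others. A peak with a p of 1e-05 or less lay within 3 kb of a transcript start of the gene for 802 of the 1675 genes with a member (47.9%, 45.5 to 50.3) and for 48.3% (47.4 to 49.2) of the 12108 without. Within the 4 groups by far coding length the shares were 56.9% (45.4 to 67.7) and 50.55% in the shortest and 47.4% (44.2 to 50.5) and 47.9% in the longest.

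The genes at which the study measured ZBTB11 by ChIP-qPCR, TTC26, TACO1, STX16, HEMK1, COQ3, ATPAF1, DUS1L, ANKRD40, PRRG2 and MMP9, the last of them within the gene body, held no member. ZBTB11, SET, MMP19, SPARC and SPP1 held none either. Of these, ANKRD40, DUS1L, PRRG2, MMP19 and SET had no coding sequence more than 3 kb from every transcript start. Apart from MMP9, the loci that the study measured by ChIP-qPCR were at promoters, which the distance rule leaves out. The absence of members in those genes therefore says nothing about the binding measured there. MMP9 had 1.12 kb of far coding sequence, and peaks in its introns or nearer to a transcript start fall outside the rule. Its lack of a member therefore cannot decide on the gene-body binding that the study measured. PECAM1, an adhesion receptor of endothelial and blood cells whose RNA the study measured, was picked out after its values were seen, as were MMP19, SPARC and SPP1 of the same set. COL14A1, also of that set, held 1 member of 7 fragments. PECAM1 held 3 members in exons 6, 7 and 8, with 5, 4 and 4 fragments over 1.35. MET, the receptor of hepatocyte growth factor, was picked in the same way and held 3 in exons 2, 3 and 4, with 5, 6 and 4 fragments. None of the 6 in PECAM1 and MET had a q of 0.05 or less.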

How the data were processed

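Chromatin from wild-type NCI-H1299 cells was immunoprecipitated with a ZBTB11 antibody or IgG, 1 library each, and reads were aligned with BWA to hg38 per the submitters' processing notes. The authors called peaks with MACS at p < 0.05, separately for each antibody. Each deposited peak list gives an interval, a summit offset, a score, a fold enrichment over local background, a −log10 p-value and a −log10 q-value, and no values of other samples were present. The study's methods name an early MACS release, while the layout of the deposited lists belongs to later ones, so the release behind these values is uncertain. The lists hold no read totals, and depth is used here only as fragments at each summit. The pileup and local background were solved from the deposited fold and p-value by the formula of the later releases, with a pseudocount of 1, which matched 100% of peaks within 0.001.

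Summits were placed on GENCODE 44, with exon numbers from the Ensembl canonical transcript where its coding sequence held the summit and otherwise from the transcript with the longest coding sequence. Every far coding and intron base was counted, so that rates and motif shares could be set against all windows of 101 bases. Ratios at the same GC content used bands of 10 points. Copies are exact matches of the central 31 bases in hg38 without alternate haplotypes. Genes named by rule are those of the 20 strongest members by p-value, the 8 genes with the most members with ties kept (10 genes), the strongest of each family, the largest fold, the widest, and the genes the study tested by ChIP-qPCR with ZBTB11 and SET. Members, gene families and the motif were chosen with earlier results of these data known. Calculations used Python 3.11.15, numpy 2.4.6, pandas 2.3.3, scipy 1.17.1, numba 0.67.0 and matplotlib 3.10.9, and were tested on simulated data. Alternatives changed the q-value, pileup, distance, window, overlap, copy number, GC content and chromosome.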

Additional observations from a re-analysis of the deposited data

How the results depend on the processing

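Of 50 alternative settings computed, 29 kept a result within its counting error or within 1.5 times its count and 21 moved it. The cause was not tested. A reversal, of which there were 0, could be scored only for a ratio whose main interval did not hold 1. The last to internal ratio, 0.963 in the main setting, could therefore not be scored as reversed, though some settings took it above 1. Keeping only peaks with a q of 0.05 or less left 90 members, with ratios of 1.52 for coding exons to introns, 1.61 for last to internal exons and 1.56 for C2H2 zinc finger to other genes. Keeping 6 or more fragments left 572 members, with ratios of 1.295, 1.11 and 1.68 in the same order, a share of 15.7% with a q of 0.05 or less and an IgG overlap of 13.85%. A distance of more than 10 kb left 880 members and a last to internal ratio of 1.1. Taking peaks with 50% or more of the interval coding in place of the summit gave 1255. Counting only summits in 1 copy, with all bases kept in the denominator, gave a coding to intron ratio of 1.17. Searching the motif within 100 bp gave 11.6%, and asking that IgG cover 50% or more of the peak gave 3.76%.

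The settings on GC content and chromosome 19, and the results at 8 and at 10 or more fragments, were added after seeing the data. The coding to intron ratio was 1.01 at the same GC content. At 8 or more fragments it was 1.25 at the same GC content and 1.102 at the same GC content without chromosome 19. The C2H2 ratio at 8 or more fragments was 1.71 without chromosome 19 and 1.61 on it alone. No paired analysis was possible because there was 1 library for each antibody. Most members rest on 6 fragments or fewer, so single faint members, and differences among the 39 of 10 or more fragments, are poorly resolved.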
